A study of Mus musculus with 19 samples.

Results

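The genes described here encode the protein parts of the machinery that removes introns from messenger RNA precursors, together with the heterogeneous nuclear ribonucleoproteins (hnRNPs) that coat those precursors. They were chosen by name. Every gene of the deposited tables was taken whose symbol begins with Snrp, Hnrnp, Sf3a, Sf3b, Prpf or U2af, with pseudogene symbols left out. The rule itself uses no expression value, but the gene set was chosen with earlier results of these data known. The rule found 57 genes of 24394. They comprised 8 genes of the Sm core, 4 genes of proteins particular to the U1 or U2 particle, 9 SF3 genes, 3 U2AF genes, 13 PRPF genes and 20 hnRNP genes. The libraries, 1 per animal, came from 19 male C57BL/6NJ mice killed at zeitgeber time 20, in the dark phase, and were made from hippocampal and cortical tissue of a single hemisphere. The groups were 5 Fabp7 knockout (KO) mice at maximal electroshock seizure threshold (KO MEST, aged 18.9 to 19.4 weeks), 4 KO sham mice (replicates 2 to 5, 17.3 to 17.9 weeks), 5 wild-type (WT) MEST mice (17.4 to 18 weeks) and 5 WT sham mice (15.9 to 16.3 weeks). Fabp7 encodes a fatty acid binding protein of astrocytes and neural stem cells. MEST mice received 1 shock a day through ear clips, starting at 20 mA and raised in steps of 2 mA until the hind limbs extended, while sham mice were handled in the same way without current. WT sham mice were the youngest and KO MEST mice the oldest, without overlap, so age and group cannot be told apart in comparisons that involve them.

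Introns are removed by the spliceosome, which is assembled on each precursor from small nuclear ribonucleoproteins (snRNPs), each a short U RNA with its proteins. A ring of Sm proteins, loaded onto the U RNA in the cytoplasm by the SMN complex, is common to most of these particles and is needed for their stability and return to the nucleus. The hnRNPs bind the precursor itself, where they favour or block nearby splice sites, and several of them also carry RNA along neuronal processes. In the brain both sets of proteins act on the many alternative exons of neuronal transcripts.

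Reads in genes numbered 27563987 to 51741037 per library. Levels are given as CPM, the reads of a gene per 1000000 reads in genes, scaled with TMM factors, and differences as log2 fold changes fitted with limma on log2(CPM + 0.1). A gene passed at an adjusted p (Benjamini-Hochberg, over all genes tested) under 0.05. As a check of the labels, Fabp7 was at 0 to 0.0876 CPM in KO MEST and 0.0515 to 0.197 CPM in KO sham mice, against 12.7 to 18 CPM in WT MEST and 10.2 to 14.7 CPM in WT sham mice. The WT sham libraries stood apart from the other 14 on the first principal component of all expressed genes, with scores of 20.4 to 30.8, against -14.2 to -1.64 in the rest. All markers of neurons, astrocytes, oligodendrocytes, microglia, endothelium, choroid plexus and meningeal fibroblasts were detected, and 3 or 4 of 5 blood markers, among them Hba-a1 or Hba-a2, were at 0. The summed level of 9 neuron markers was 8194 to 8830 CPM in KO MEST, 8066 to 8565 CPM in KO sham, 7875 to 8810 CPM in WT MEST and 7708 to 8238 CPM in WT sham mice. The summed level of 5 oligodendrocyte markers was 5540.5 to 6090.4 CPM in KO MEST, 6095 to 6654 CPM in KO sham, 5729 to 7759 CPM in WT MEST and 6226 to 6871 CPM in WT sham mice. Meningeal fibroblast markers (5) summed to 78.1 to 104.3 CPM in KO MEST, 57.6 to 69.6 CPM in KO sham, 64.1 to 74.8 CPM in WT MEST and 55.8 to 74.7 CPM in WT sham mice, so that KO MEST mice lay above all others. Endothelium markers (5) summed to 184 to 202.2 CPM in KO MEST, 202.0 to 213 CPM in KO sham, 202.6 to 220.6 CPM in WT MEST and 196 to 225 CPM in WT sham mice. Choroid plexus markers overlapped in all groups (868 to 1900 CPM). Their median log2 fold change was -0.29 in KO over WT MEST and -0.39 in KO MEST over KO sham mice, negative for 5 of 5 in each. Sums of 5 astrocyte and of 5 microglia markers overlapped in all groups. The part of these differences in the results was not tested, and in bulk tissue fewer cells of a type and less RNA per cell cannot be told apart.

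Many hnRNP and PRPF transcripts were lower in KO sham and in WT MEST than in WT sham mice, while the Sm core genes divided, some lower and some higher. All 57 genes passed the filter on low values in each comparison. In KO against WT sham mice 22 of the 57 genes fell below and 3 lay above at the test's threshold, that is 38.6% and 5.26%, beside 7.18% lower and 8.18% higher (15.4% in all) over the 16182 genes tested. In WT MEST against WT sham mice 29 were lower and 6 higher, 50.9% and 10.5%, beside 12.3% in each direction (24.6% in all) over 16080 genes. These comparisons share the 5 WT sham libraries, so their directions are not independent of each other.

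Between the MEST mice of the 2 genotypes most calls were higher in KO tissue. In KO against WT MEST mice 15 of the 57 genes were higher and 3 lower, 26.3% and 5.26%, beside 5.65% higher and 4.27% lower (9.92% in all) over 16061 genes. In KO mice, no member passed in MEST against sham tissue under limma or edgeR. Over all 16147 genes limma called 0.904% higher and 0.489% lower there (1.39% in all). Under DESeq2 5 members were higher and 1 lower, beside 547 and 368 of the 16147 genes. At an unadjusted p under 0.05 in limma there were 15 of the 57 members, beside 2870 of the 16147 genes. Without the KO sham library of replicate 3, 4 members were higher (Prpf3, Prpf38b, Prpf40b and Hnrnpa1). The difference between the seizure effects of the 2 genotypes, tested directly as KO minus WT, was positive for 28 members and negative for 5, 49.1% and 8.77%, beside 9.65% and 8.95% (18.6% in all) over 16596 genes. This difference also contains the WT sham libraries, so it is not independent of the comparisons with WT sham mice.

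**Figure D1:**
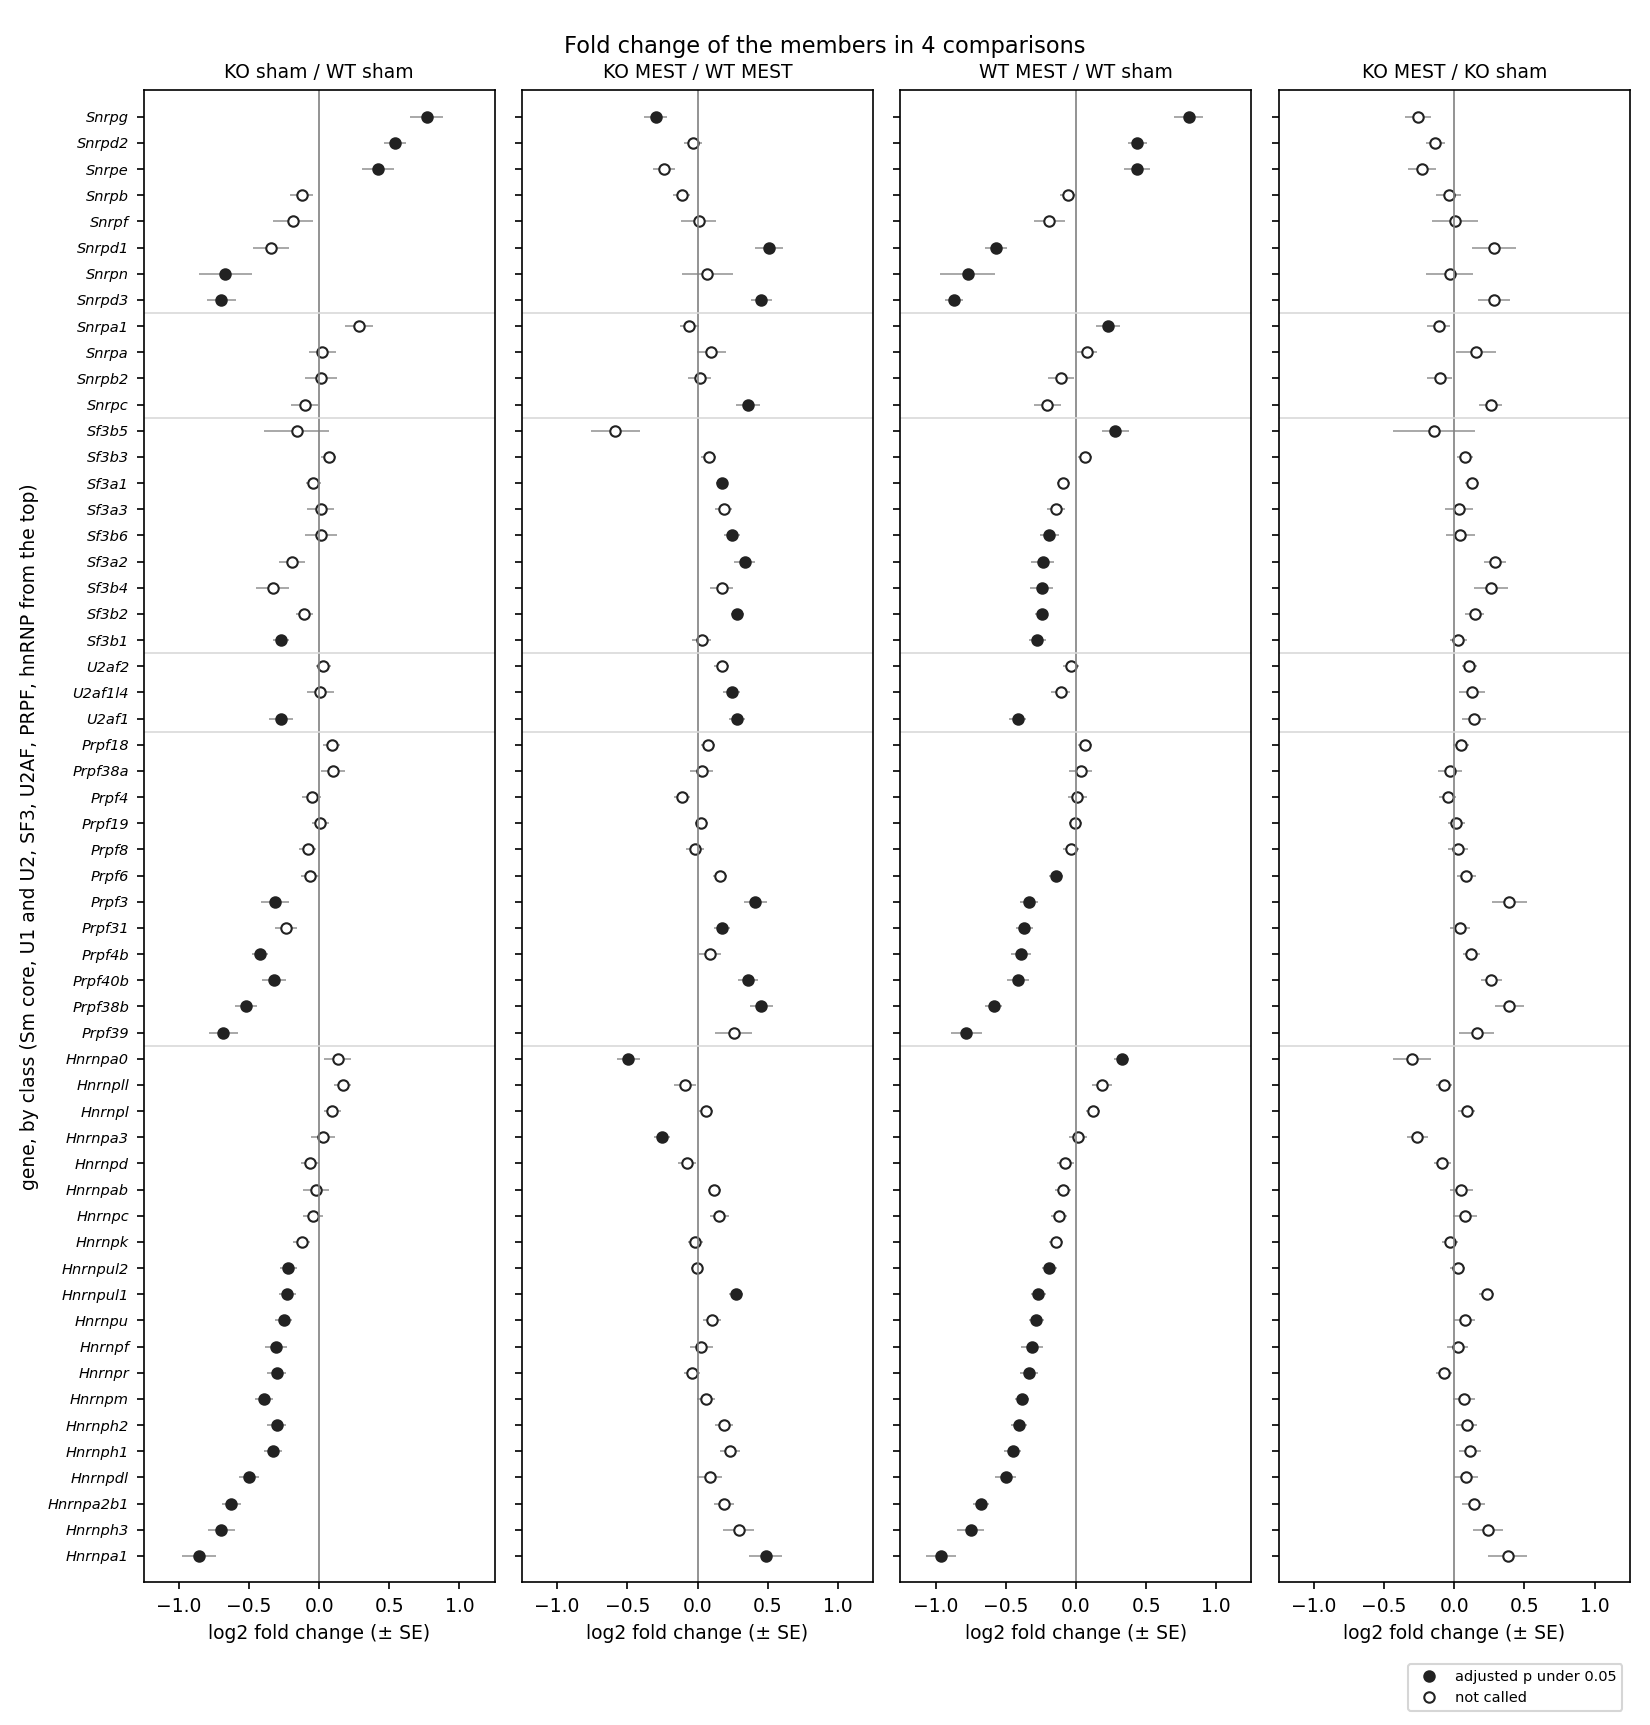
Log2 fold change (x axis, with its standard error) of 56 of the 57 genes (y axis, grouped by class and ordered within a class by the third panel) in KO sham over WT sham, KO MEST over WT MEST, WT MEST over WT sham and KO MEST over KO sham mice. Filled points have an adjusted p under 0.05 from limma; 21 genes are lower in the first panel and 28 in the third, 15 are higher in the second and none is filled in the fourth.

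Groups that did not overlap gave a like picture. Every KO sham library was below every WT sham library for 18 members and above for 4, beside 7.54% and 9.26% (16.8% in all) of the genes tested. WT MEST libraries were all below the WT sham libraries for 25 members and all above for 4, beside 7.97% and 8.74% (16.7% in all). Between MEST mice 15 members were above in KO tissue and 3 below, beside 5% and 3.68% (8.68% in all). In KO mice 2 members were above in MEST tissue and 1 below, beside 4.06% and 3.62% (7.69% in all). For 11 members (19.3%) each WT sham library was above all 14 other libraries, as for 2.09% of all genes, and for 1 member, Snrpd2, each was below them, as for 3.75% of all genes.

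Of the genes of the Sm ring, some were low and some were high in WT sham mice. Snrpg, which encodes the small ring protein SmG, had 10.9, 10.9, 11.1, 11.2 and 8.86 CPM in KO MEST, 12.1, 13, 14.2 and 11.6 CPM in KO sham, 13.2, 13.4, 13.8, 12.1 and 12.6 CPM in WT MEST and 9.15, 7.01, 6.57, 8.02 and 6.65 CPM in WT sham mice. Snrpd2, whose product SmD2 pairs with SmD1 in the ring, had 40.9, 40.2, 35.1, 37.4 and 36 CPM in KO MEST, 41.1, 44.6, 42.8 and 38 CPM in KO sham, 37.9, 38.1, 42.4, 39 and 36.3 CPM in WT MEST and 29, 30.4, 25.5, 30.6 and 27.4 CPM in WT sham mice. Snrpe, encoding SmE, which sits between SmF and SmG, had 15.9, 16.4, 15.4, 15.5 and 15.2 CPM in KO MEST, 16.5, 23.6, 16.3 and 17.7 CPM in KO sham, 19.9, 15.8, 18.7, 17.5 and 21 CPM in WT MEST and 13.4, 14.4, 13.4, 15.7 and 11.7 CPM in WT sham mice. WT sham mice were lowest for all 3 genes, without overlap for Snrpd2, and with overlap only with KO MEST mice for Snrpg and Snrpe. The log2 fold change in KO over WT sham mice was 0.77 (SE 0.12, adjusted p = 0.000405) for Snrpg, 0.54 (SE 0.08, adjusted p = 0.000185) for Snrpd2 and 0.42 (SE 0.11, adjusted p = 0.0198) for Snrpe. In WT MEST over WT sham mice it was 0.80 (SE 0.10, adjusted p = 6.62e-06) for Snrpg, 0.44 (SE 0.07, adjusted p = 4.97e-05) for Snrpd2 and 0.43 (SE 0.09, adjusted p = 0.00141) for Snrpe. The call for Snrpe in sham mice was lost without WT sham replicate 5 (adjusted p = 0.0568).

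Snrpd3 ran against these genes, and Snrpd1 did so in part. Snrpd3, whose product SmD3 pairs with SmB, had 52.9, 67.7, 61.1, 50.9 and 64.1 CPM in KO MEST, 55, 56.4, 42.8 and 41.6 CPM in KO sham, 44.7, 40.8, 42.8, 41.9 and 45 CPM in WT MEST and 72.5, 75.4, 95, 79.5 and 72.7 CPM in WT sham mice. Snrpd1, encoding SmD1, had 39.7, 55.7, 55.9, 37.7 and 47.6 CPM in KO MEST, 39.1, 50.5, 32.3 and 33.8 CPM in KO sham, 33.7, 30.5, 32.6, 31.5 and 35.6 CPM in WT MEST and 41.3, 49.4, 58.8, 49.1 and 46.1 CPM in WT sham mice. Every WT sham mouse exceeded all other mice for Snrpd3, whereas for Snrpd1 the KO MEST and WT sham values covered nearly the same range and those of WT MEST mice lay below both. Snrpd3 was lower in KO sham than in WT sham mice by a log2 fold change of -0.70 (SE 0.11, adjusted p = 0.000739) and lower in WT MEST than in WT sham mice by -0.87 (SE 0.07, adjusted p = 1.26e-08). For Snrpd1 the values were -0.34 (SE 0.13, adjusted p = 0.101) in KO over WT sham, which did not pass, and -0.57 (SE 0.08, adjusted p = 1.03e-05) in WT MEST over WT sham mice. Without KO sham replicate 3 the sham comparison of Snrpd1 passed, with an adjusted p of 0.00229.

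Snrpn, which lies in the imprinted region of chromosome 7 and encodes SmN, the counterpart of SmB in neurons, was counted at a low level here. It had 1.56, 2.15, 2.07, 2.83 and 1.99 CPM in KO MEST, 2.23, 2.26, 2.39 and 1.72 CPM in KO sham, 1.57, 2.66, 2.46, 1.82 and 1.63 CPM in WT MEST and 2.52, 4.22, 4.29, 3.91 and 2.73 CPM in WT sham mice. The KO sham values were all below the WT sham values, and the WT MEST values overlapped them. Its log2 fold change was -0.67 (SE 0.19, adjusted p = 0.026) in KO over WT sham and -0.77 (SE 0.20, adjusted p = 0.00558) in WT MEST over WT sham mice. The sham call was lost without KO sham replicate 5 or WT sham replicates 2, 3 or 4 (adjusted p up to 0.0879). Of its exonic bases 34.1% are shared with other genes, among them Snurf on the same strand, so its count may be divided between them.

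**Figure D2:**
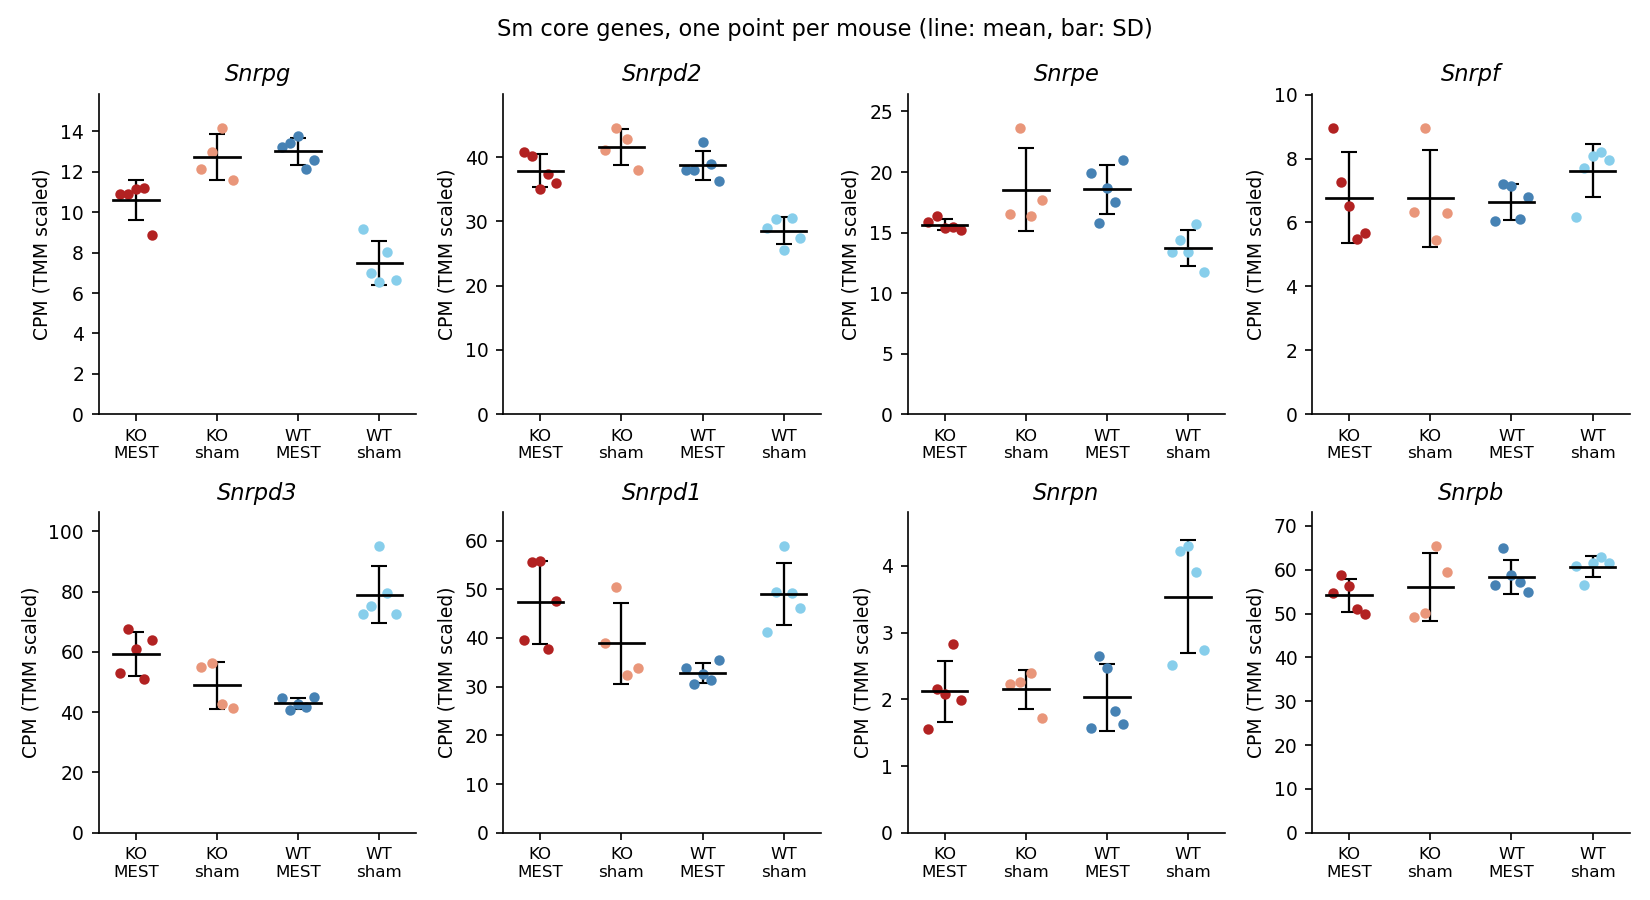
Level of the 8 Sm core genes in CPM (y axis, from 0) in each mouse (points) of the KO MEST, KO sham, WT MEST and WT sham groups, with the mean (line) and SD (bar). Snrpg, Snrpd2 and Snrpe are lowest in WT sham mice (means of 7.48, 28.6 and 13.7 CPM), and Snrpd3 and Snrpn are highest there (79 and 3.53 CPM).

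The remaining Sm genes did not pass any test. Snrpb, encoding SmB, had 54.6, 58.7, 56.3, 51 and 49.9 CPM in KO MEST, 49.2, 50.0, 65.3 and 59.4 CPM in KO sham, 56.4, 64.9, 58.7, 57.1 and 55 CPM in WT MEST and 60.8, 56.6, 61.5, 62.8 and 61.6 CPM in WT sham mice. Snrpf, encoding SmF, had 8.96, 7.28, 6.51, 5.47 and 5.68 CPM in KO MEST, 6.31, 8.96, 5.46 and 6.3 CPM in KO sham, 6.03, 7.21, 7.13, 6.09 and 6.79 CPM in WT MEST and 6.17, 7.7, 8.07, 8.19 and 7.96 CPM in WT sham mice. All 4 groups overlapped for both genes, and 85.4% of the exonic bases of Snrpf lie opposite other genes, chiefly Ccdc38, so without a stated strand setting its reads cannot be told apart from theirs.

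Between MEST mice 3 Sm genes passed, 2 higher and 1 lower in KO tissue (25% and 12.5%, beside 5.65% and 4.27% over all genes). Snrpd3 and Snrpd1 were above in KO compared with WT tissue, with log2 fold changes of 0.45 (SE 0.07, adjusted p = 0.00217) and 0.51 (SE 0.10, adjusted p = 0.0075), and no KO MEST value of either gene overlapped those of WT MEST mice. Snrpg was lower in KO MEST mice, with a log2 fold change of -0.30 (SE 0.08, adjusted p = 0.0319). That call was lost without KO MEST replicate 2 or 5 or WT MEST replicate 1, 2 or 3 (adjusted p up to 0.0915). In KO MEST over KO sham mice none passed, and the log2 fold changes were 0.28 (SE 0.11, adjusted p = 0.215) for Snrpd3, 0.28 (SE 0.16, adjusted p = 0.389) for Snrpd1 and -0.26 (SE 0.09, adjusted p = 0.166) for Snrpg. The seizure effect differed between genotypes by 1.15 (SE 0.13, adjusted p = 2.85e-06) for Snrpd3 and 0.85 (SE 0.18, adjusted p = 0.00247) for Snrpd1. It differed by -1.06 (SE 0.14, adjusted p = 6.83e-06) for Snrpg, -0.66 (SE 0.14, adjusted p = 0.00147) for Snrpe and -0.57 (SE 0.09, adjusted p = 0.000122) for Snrpd2.

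The Snrp genes of proteins that belong to the U1 or the U2 particle alone gave few calls. The SF3 genes and Snrnp70, whose products also belong to these particles, are described below. Snrpa, whose product binds a stem-loop of the U1 RNA, had 53.6, 47.8, 42.4, 33.9 and 37.3 CPM in KO MEST, 30.0, 39.6, 42.8 and 41.5 CPM in KO sham, 36.3, 42, 41.8, 40.3 and 38 CPM in WT MEST and 34.3, 38.1, 35, 37.6 and 43.1 CPM in WT sham mice. Snrpc, whose product helps U1 to pair with the 5′ splice site, had 17.6, 20.6, 17.9, 16.5 and 17.3 CPM in KO MEST, 14.4, 14.4, 17 and 14.3 CPM in KO sham, 13.6, 15.1, 16.1, 11.8 and 13.5 CPM in WT MEST and 15.2, 14.6, 19.4, 16.3 and 15.3 CPM in WT sham mice. Snrpa passed no test, while the KO MEST values of Snrpc were all above those of WT MEST mice, with a log2 fold change of 0.36 (SE 0.09, adjusted p = 0.0181). That call was lost without KO MEST replicate 2 (adjusted p = 0.0588), and the seizure effect on Snrpc differed between genotypes by 0.46 (SE 0.13, adjusted p = 0.0147).

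Among the Snrp genes, the partners of the U2 RNA gave calls of small size for 1 gene. Snrpa1, encoding an adaptor protein on the U2 RNA, had 21.2, 20.5, 20.7, 20.2 and 18.2 CPM in KO MEST, 23.4, 24, 19 and 20.9 CPM in KO sham, 19.5, 20.5, 21.6, 22.8 and 20.6 CPM in WT MEST and 15.7, 21, 18.9, 18.5 and 15.9 CPM in WT sham mice. Snrpb2, whose product binds the U2 RNA as a pair with that of Snrpa1, had 30.0, 28.9, 30.9, 27 and 28.7 CPM in KO MEST, 30.2, 38.8, 27.6 and 29.5 CPM in KO sham, 30.7, 24, 26.9, 29 and 34.2 CPM in WT MEST and 29.9, 31, 37.7, 31.8 and 25.6 CPM in WT sham mice. The groups overlapped for both genes. Snrpa1 was higher in WT MEST than in WT sham mice by 0.23 (SE 0.08, adjusted p = 0.0495), a call that held only without WT MEST replicate 1 or WT sham replicate 2 when each library was left out in turn (adjusted p up to 0.141). Its seizure effect differed between genotypes by -0.34 (SE 0.12, adjusted p = 0.047), lost without KO MEST replicate 2, 3, 4 or 5, KO sham replicate 2, 3 or 5, WT MEST replicate 3 or 4 or WT sham replicate 1, 4 or 5 (adjusted p up to 0.101).

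SF3A and SF3B are the parts of the U2 particle that grip the branch point, and U2AF recruits U2 to the 3′ end of the intron. Sf3b2, encoding a large SF3B subunit, had 320.2, 328, 316, 299 and 330.3 CPM in KO MEST, 294, 326, 262 and 275 CPM in KO sham, 254, 266, 262, 259.6 and 267 CPM in WT MEST and 311, 316, 300.4, 305 and 318 CPM in WT sham mice. The WT MEST values lay below those of every KO MEST and every WT sham mouse. Its log2 fold change was 0.28 (SE 0.05, adjusted p = 0.00206) in KO over WT MEST and -0.24 (SE 0.04, adjusted p = 0.000288) in WT MEST over WT sham mice, while in sham mice it was -0.11 (SE 0.06, adjusted p = 0.281). Without KO sham replicate 3 the sham value passed, with an adjusted p of 0.0441. The seizure effect on Sf3b2 differed between genotypes by 0.39 (SE 0.07, adjusted p = 0.000525).

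Of the other SF3 genes, Sf3b1, whose product contacts the branch point and which is often mutated in human blood cancers, averaged 259 ± 12.3 CPM in KO sham (SD, n = 4) and 259 ± 24.2 CPM in WT MEST, against 313 ± 17.5 CPM in WT sham mice (SD, n = 5 each). It was lower in KO sham than in WT sham mice by -0.27 (SE 0.06, adjusted p = 0.00397) and in WT MEST than in WT sham mice by -0.28 (SE 0.06, adjusted p = 0.00159). Sf3b5, encoding a small SF3B subunit, ran against the class and had 21.9, 13.1, 13, 13.8 and 9.97 CPM in KO MEST, 11.7, 10.7, 24.7 and 17.9 CPM in KO sham, 19.2, 21.1, 26.4, 19.7 and 18.6 CPM in WT MEST and 16.6, 18.2, 14.7, 19.8 and 16.9 CPM in WT sham mice. It was the SF3 gene called higher in WT MEST over WT sham mice, at 0.28 (SE 0.10, adjusted p = 0.035), but the call was lost without WT MEST replicate 3 or WT sham replicate 1, 3 or 5 (adjusted p up to 0.129), and its values spread from 9.97 to 24.7 CPM in the KO groups. In KO over WT MEST mice it was -0.58 (SE 0.17, adjusted p = 0.0542), and -0.75 (adjusted p = 0.000923) without KO MEST replicate 1. Sf3a1, Sf3a2, Sf3b2 and Sf3b6 were higher in KO MEST than in WT MEST mice, with log2 fold changes of 0.17 to 0.34, and the call for Sf3a1 was lost without KO MEST replicate 2, 3 or 5 (adjusted p up to 0.0528). Sf3a2, Sf3b4 and Sf3b6 were lower in WT MEST than in WT sham mice, with log2 fold changes of -0.24, -0.24 and -0.19. Each of these calls was lost without WT MEST replicate 1, 4 or 5 or WT sham replicate 3 or 5, and for some of them without other libraries too (adjusted p up to 0.144). Sf3a3 and Sf3b3 passed no test. Sf3b4 shares 36.9% of its 100-base windows with other genes, chiefly Gm7935.

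U2af1 encodes the U2AF subunit that reads the AG at the end of the intron. It averaged 40.9 ± 2.05 CPM in KO MEST, 37.3 ± 5.31 CPM in KO sham, 33.6 ± 1.65 CPM in WT MEST and 44.8 ± 2.42 CPM in WT sham mice (SD, n = 5, 4, 5 and 5). The log2 fold change was -0.27 (SE 0.09, adjusted p = 0.0388) in KO over WT sham, -0.41 (SE 0.06, adjusted p = 3.04e-05) in WT MEST over WT sham and 0.28 (SE 0.06, adjusted p = 0.0068) in KO over WT MEST mice. The sham call was lost without KO sham replicate 4 or 5 or WT sham replicate 2, 3, 4 or 5 (adjusted p up to 0.147). U2af2, whose product binds the polypyrimidine tract and works as a pair with U2AF1, had log2 fold changes of 0.03, -0.03 and 0.17 in the same comparisons, and none passed. U2af1l4, a relative of U2af1, was higher in KO MEST than in WT MEST mice by 0.24 (SE 0.06, adjusted p = 0.0168), and 97.1% of its windows are shared with the overlapping model Gm49396. Of the 100-base windows of U2af1 transcripts 49.5% occur also in another gene, mainly the pseudogene Gm10232, so its counts are uncertain.

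The PRPF proteins act at several stages of the cycle, and their genes gave calls in 1 direction in each comparison. In KO against WT sham mice 6 of 13 were lower (46.2%, beside 7.18% over all genes) and none higher (beside 8.18%). In WT MEST against WT sham mice 8 were lower (61.5%) and none higher, beside 12.3% in each direction. In KO against WT MEST mice 4 were higher (30.8%, beside 5.65%) and none lower (beside 4.27%). Of these 4, Prpf31 was just inside the threshold at 0.17 (SE 0.05, adjusted p = 0.0499) and was called in 7 of 23 alternatives. Its call was lost without any 1 of the KO MEST libraries or WT MEST replicate 2, 3, 4 or 5 (adjusted p up to 0.111). Prpf38b, related to the factor that activates the assembled spliceosome, had 68.2, 72.5, 75.4, 54 and 69.9 CPM in KO MEST, 50.5, 61.7, 46.3 and 48.8 CPM in KO sham, 50.9, 49.5, 43.9, 48.1 and 55 CPM in WT MEST and 72.9, 68.7, 79, 73.8 and 76.2 CPM in WT sham mice. Prpf4b, a nuclear kinase that phosphorylates proteins of the tri-snRNP, had 97.9, 96.7, 108, 88 and 99.5 CPM in KO MEST, 94.5, 89.2, 84.7 and 91.4 CPM in KO sham, 94.5, 80.5, 81.3, 95.7 and 111 CPM in WT MEST and 122, 128, 119, 117 and 116 CPM in WT sham mice. WT sham mice were highest for Prpf4b without overlap, and for Prpf38b they overlapped KO MEST mice but no KO sham or WT MEST mouse.

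Prpf38b was lower in KO sham than in WT sham mice by -0.52 (SE 0.08, adjusted p = 0.000324) and in WT MEST than in WT sham mice by -0.59 (SE 0.06, adjusted p = 4.7e-07), and higher in KO MEST than in WT MEST mice by 0.45 (SE 0.08, adjusted p = 0.00396). In KO MEST over KO sham mice it was 0.39 (SE 0.10, adjusted p = 0.0804), and the seizure effects differed by 0.98 (SE 0.12, adjusted p = 3.49e-06). Prpf4b was lower in KO sham than in WT sham mice by -0.42 (SE 0.06, adjusted p = 0.000139) and in WT MEST than in WT sham mice by -0.39 (SE 0.07, adjusted p = 0.000359). The genotypes did not separate for it at MEST, with 0.09 (SE 0.08, adjusted p = 0.526).

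Prpf3, a protein of the U4/U6 particle whose human gene is mutated in retinitis pigmentosa, had 28.5, 32.4, 33.6, 24.2 and 28.7 CPM in KO MEST, 21.5, 29, 18.8 and 21.1 CPM in KO sham, 21.5, 22.4, 20.2, 23 and 23 CPM in WT MEST and 27.7, 26, 28.1, 29.2 and 27.9 CPM in WT sham mice. All KO MEST values were above the WT MEST values, with a log2 fold change of 0.41 (SE 0.08, adjusted p = 0.00561). In KO over WT sham mice it was -0.31 (SE 0.10, adjusted p = 0.0437), lost when any of the 9 libraries other than KO sham replicate 3 was left out (adjusted p up to 0.153). The seizure effects on Prpf3 differed between genotypes by 0.72 (SE 0.13, adjusted p = 0.000377). Prpf39, a partner of the U1 particle, had the lowest log2 fold changes of the class in both comparisons with WT sham mice, -0.68 (SE 0.10, adjusted p = 0.000452) for KO sham and -0.78 (SE 0.11, adjusted p = 0.000177) for WT MEST mice. Prpf40b, a relative of a yeast protein of the U1 particle, was lower in both comparisons with WT sham mice, with log2 fold changes of -0.32 (SE 0.08, adjusted p = 0.0161) for KO sham and -0.41 (SE 0.08, adjusted p = 0.000408) for WT MEST mice. The KO sham call was lost without KO sham replicate 2 or 4 or WT sham replicate 2 (adjusted p up to 0.0586). Prpf31 and Prpf6, proteins of the tri-snRNP, were lower in WT MEST than in WT sham mice by -0.37 (SE 0.06, adjusted p = 0.000116) and -0.14 (SE 0.05, adjusted p = 0.0382), the call for Prpf6 being lost without WT MEST replicate 2, 3, 4 or 5 or WT sham replicate 1, 2 or 3 (adjusted p up to 0.103). By contrast Prpf8, Prpf19, Prpf18, Prpf4 and Prpf38a, the first of them the core of the U5 particle and the second a ubiquitin ligase of the active spliceosome, passed no test, with log2 fold changes of -0.11 to 0.10 in the comparisons between groups.

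In KO against WT sham mice 12 of the 20 hnRNPs were lower (60%, beside 7.18% of all genes) and none higher (beside 8.18%). In WT MEST against WT sham mice 12 were lower and 1 higher (60% and 5%, beside 12.3% each). Hnrnpa2b1, encoding a protein that carries RNA into dendrites and oligodendrocyte processes, had 429, 492, 482, 392 and 415 CPM in KO MEST, 379, 465, 377 and 387 CPM in KO sham, 379.9, 359, 357, 405 and 437 CPM in WT MEST and 609.7, 614, 675, 617 and 575 CPM in WT sham mice. Hnrnph3, a member of the group that binds runs of G, had 15.9, 14.8, 15.4, 11.3 and 13.6 CPM in KO MEST, 12.8, 12.9, 12 and 10.2 CPM in KO sham, 9, 11.1, 12.3, 13.3 and 12.3 CPM in WT MEST and 18.4, 17.5, 21.9, 19.2 and 20.2 CPM in WT sham mice. Hnrnpdl, related to the AU-rich element binder hnRNP D, had 146, 140.3, 159.5, 126 and 151 CPM in KO MEST, 129.7, 162, 121 and 135 CPM in KO sham, 153, 130.0, 109.6, 133 and 159 CPM in WT MEST and 185, 197, 199.5, 194 and 186 CPM in WT sham mice. WT sham values were above all others for each of the 3 genes, and the remaining groups overlapped each other.

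Hnrnpa1, encoding an abundant repressor of exons that shuttles between nucleus and cytoplasm, had 7.64, 8.04, 10.1, 6.91 and 7.55 CPM in KO MEST, 5.82, 8.08, 5.17 and 5.73 CPM in KO sham, 4.7, 5.92, 5.24, 5.93 and 6.82 CPM in WT MEST and 12, 10.6, 11.6, 10.7 and 10.9 CPM in WT sham mice. Its WT sham values were also above all others. Hnrnpa1 shares 25.4% of its 100-base windows with other genes, chiefly the pseudogene Gm10052, and how reads of such windows were assigned is not given in the sources used here. The log2 fold change in KO over WT sham mice was -0.86 (SE 0.12, adjusted p = 0.000243) for Hnrnpa1, -0.70 (SE 0.10, adjusted p = 0.00017) for Hnrnph3, -0.63 (SE 0.07, adjusted p = 1.97e-05) for Hnrnpa2b1 and -0.50 (SE 0.07, adjusted p = 0.000242) for Hnrnpdl. In WT MEST over WT sham mice it was -0.96 (SE 0.11, adjusted p = 1.3e-06) for Hnrnpa1, -0.75 (SE 0.10, adjusted p = 8.49e-06) for Hnrnph3, -0.68 (SE 0.06, adjusted p = 2.7e-08) for Hnrnpa2b1 and -0.50 (SE 0.08, adjusted p = 8.69e-05) for Hnrnpdl.

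Hnrnpf, Hnrnph1, Hnrnph2, Hnrnpm, Hnrnpr, Hnrnpu and Hnrnpul2 were lower in the same 2 comparisons, with log2 fold changes of -0.39 to -0.22 in KO over WT sham and -0.45 to -0.19 in WT MEST over WT sham mice. Hnrnpf, Hnrnph1 and Hnrnph2 encode binders of G runs like Hnrnph3, and Hnrnpu a protein of the nuclear scaffold. The KO sham call of Hnrnpul2 was lost without KO sham replicate 2 or 4 or WT sham replicate 2, 3 or 5 (adjusted p up to 0.0823). Shared 100-base windows make up 43.5% of Hnrnpf (chiefly with Gm6430) and 27.9% of Hnrnpm (with the overlapping gene March2), so their counts are uncertain. With the trend on length removed, the KO sham calls of Hnrnpr, Hnrnpu and Hnrnpul2 were lost.

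**Figure D3:**
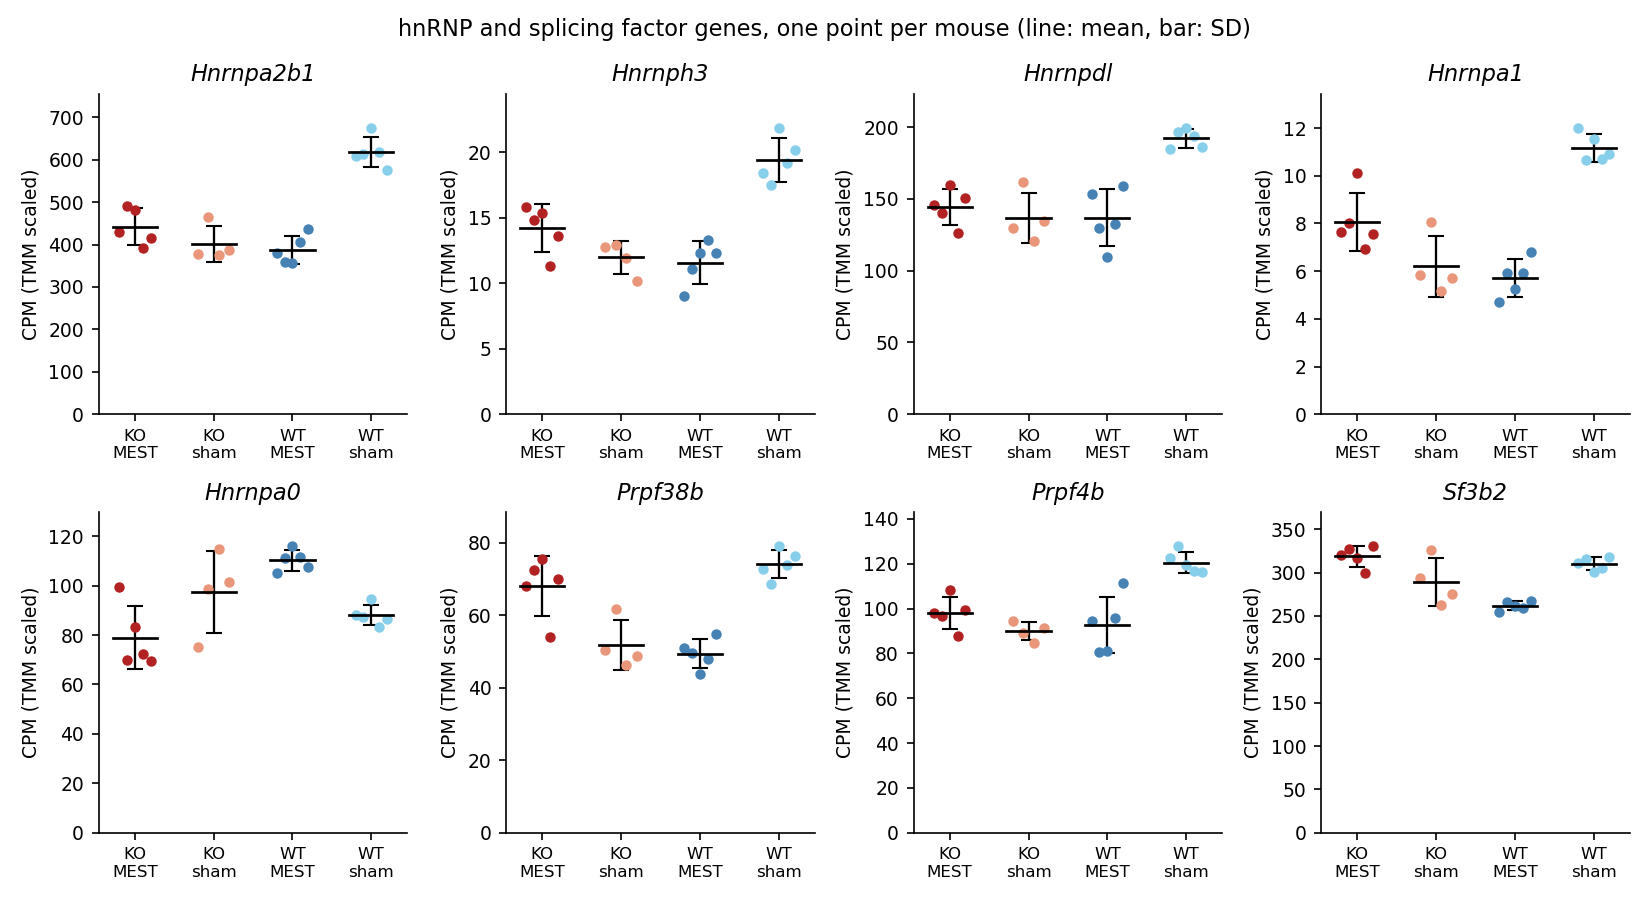
Level in CPM (y axis, from 0) of 5 hnRNP genes, 2 PRPF genes and Sf3b2 in each mouse (points) of the KO MEST, KO sham, WT MEST and WT sham groups, with the mean (line) and SD (bar). WT sham mice are highest for Hnrnpa2b1 (mean 618 CPM), Hnrnph3 (19.4 CPM), Hnrnpdl (192 CPM), Hnrnpa1 (11.2 CPM) and Prpf4b (121 CPM), and Hnrnpa0 is highest in WT MEST mice (110.3 CPM).

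At MEST 16 of the 20 hnRNP genes passed no test between genotypes. In KO tissue 2 were higher and 2 lower (10% each, beside 5.65% and 4.27% over all genes tested). Hnrnpa1 was higher in KO tissue by 0.48 (SE 0.12, adjusted p = 0.0182), a call lost without KO MEST replicate 3 (adjusted p = 0.0514). Without KO MEST replicate 4, Hnrnpa2b1, Hnrnph1, Hnrnph2 and Hnrnph3 also passed, with adjusted p of 0.0321 for Hnrnpa2b1 and 0.0266 for Hnrnph3. Hnrnph1 lay just outside the threshold with all libraries, at 0.23 (adjusted p = 0.05003), and passed in 7 of 23 alternatives (adjusted p of 0.0192 to 0.123). Prpf6, Sf3a3 and U2af2, members of other classes, also passed without that replicate. Hnrnpul1, related to the nuclear scaffold protein hnRNP U, had 114, 115, 106, 112 and 115 CPM in KO MEST, 99.2, 90.4, 100.3 and 94.2 CPM in KO sham, 86.6, 95.4, 96.6, 91.3 and 96.3 CPM in WT MEST and 105, 107, 116, 116 and 118 CPM in WT sham mice. Its KO MEST values were above those of every KO sham and WT MEST mouse, with a log2 fold change of 0.27 (SE 0.05, adjusted p = 0.00345) in KO over WT MEST and 0.23 (SE 0.05, adjusted p = 0.053) in KO MEST over KO sham mice. In KO over WT sham mice it was -0.23 (SE 0.06, adjusted p = 0.0166), lost without KO sham replicate 5 (adjusted p = 0.0506), and the seizure effects differed by 0.50 (SE 0.07, adjusted p = 3.09e-05).

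A pair of hnRNP A/B genes ran the other way. Hnrnpa0, encoding a binder of AU-rich elements, had 99.5, 70.1, 83.2, 72.5 and 69.7 CPM in KO MEST, 75.2, 98.6, 115 and 101 CPM in KO sham, 105, 111, 116, 112 and 107 CPM in WT MEST and 88.1, 87.5, 94.6, 83.3 and 86.4 CPM in WT sham mice. Hnrnpa3, another member of the A/B group, had 55.9, 58, 67.1, 61.2 and 56.7 CPM in KO MEST, 62.8, 74.8, 72.8 and 76.9 CPM in KO sham, 72.2, 67.7, 68.6, 73.5 and 73.2 CPM in WT MEST and 68.8, 71, 80.7, 59.2 and 73.6 CPM in WT sham mice. For both genes each KO MEST value was below each WT MEST value, with log2 fold changes of -0.49 (SE 0.08, adjusted p = 0.00294) for Hnrnpa0 and -0.25 (SE 0.06, adjusted p = 0.0125) for Hnrnpa3. Hnrnpa0 was higher in WT MEST than in WT sham mice, at 0.33 (SE 0.05, adjusted p = 6.8e-05), and its seizure effect differed between genotypes by -0.63 (SE 0.14, adjusted p = 0.00255), against 1.34 (SE 0.17, adjusted p = 6.3e-06) for Hnrnpa1, 0.99 (SE 0.15, adjusted p = 4.54e-05) for Hnrnph3 and 0.81 (SE 0.10, adjusted p = 4.12e-06) for Hnrnpa2b1. Hnrnpa3 shares 27.5% of its windows with other genes, chiefly Gm5641, and Hnrnpk 25.3%, chiefly Gm7964, while 29.1% of the exonic bases of Hnrnpab and 26.5% of those of Hnrnpf overlap genes of the opposite strand. Hnrnpc, Hnrnpd, Hnrnpab, Hnrnpl, Hnrnpll and Hnrnpk, the first of them a binder of U-rich tracts, passed no test. Their log2 fold changes in the comparisons between groups lay between -0.14 and 0.19.

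The stretches before the start of 6 of these genes are shown, since 3 of them were lower (Hnrnpa1, Hnrnpa2b1, Prpf38b) and 3 higher (Hnrnpa0, Snrpd2, Snrpe) in WT MEST than in WT sham mice. They are RefSeq sequences of GRCm38.p6, for each gene the 119 or 120 bases nearest to its start, among the 250 before it, that no exon of GENCODE vM21 covers, written 5′ to 3′, with the letters CCAAT or their complement ATTGG in capitals. They end at the start itself, except that of Snrpe, 11 bases before it, and that of Snrpd2, 116 bases before it.
Hnrnpa1 (chr15:103240277-103240396, plus strand): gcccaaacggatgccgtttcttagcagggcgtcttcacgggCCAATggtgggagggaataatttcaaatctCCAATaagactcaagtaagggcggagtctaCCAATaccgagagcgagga
Hnrnpa2b1 (chr6:51469895-51470014, minus strand): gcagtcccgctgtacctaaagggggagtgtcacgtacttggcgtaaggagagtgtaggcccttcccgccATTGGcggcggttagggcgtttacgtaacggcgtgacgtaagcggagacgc
Prpf38b (chr3:108911730-108911849, minus strand): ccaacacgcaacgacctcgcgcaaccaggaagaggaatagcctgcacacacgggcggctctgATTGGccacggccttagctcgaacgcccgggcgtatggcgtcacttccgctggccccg
Hnrnpa0 (chr13:58128557-58128676, minus strand): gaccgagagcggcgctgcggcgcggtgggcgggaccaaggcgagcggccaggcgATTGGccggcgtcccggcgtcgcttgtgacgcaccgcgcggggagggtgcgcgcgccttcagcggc
Snrpd2 (chr7:19149602-19149721, plus strand): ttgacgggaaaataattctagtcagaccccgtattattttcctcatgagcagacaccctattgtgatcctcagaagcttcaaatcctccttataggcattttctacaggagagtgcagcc
Snrpe (chr1:133610292-133610410, minus strand): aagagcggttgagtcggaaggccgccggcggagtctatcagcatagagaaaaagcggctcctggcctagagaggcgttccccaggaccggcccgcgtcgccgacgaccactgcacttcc
CCAAT stood 3 times in the stretch of Hnrnpa1, once in those of Hnrnpa2b1, Prpf38b and Hnrnpa0, and not in the others. Within 250 bases before the start, searched on both strands, CCAAT was found for 25 of the 48 members with a RefSeq promoter (52.1%). Over all genes it was in 34.5% of 27025 promoters. By class it was found for 12 of 18 hnRNP (66.7%), 6 of 11 PRPF, 4 of 6 Sm core, 1 of 2 U2AF, 2 of 7 SF3 and 0 of 4 U1 and U2 genes. CCGGAAG was found for 6 of 7 SF3, 2 of 4 U1 and U2, 2 of 11 PRPF, 2 of 18 hnRNP, 1 of 6 Sm core and 0 of 2 U2AF genes. It was in 7.05% of all promoters. TATAAA was found for 3 of the 48 members with a promoter, and in 13% of all promoters. Different motifs of the 3 can share at most 1 base by their letters, and no match was tested for binding.

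Averaged over the genes of a class, the deviation of each library from the mean of the 4 groups was not ordered alike in all classes. For the hnRNPs it was -0.12 to 0.087 in KO MEST, -0.11 to 0.058 in KO sham, -0.15 to -0.0028 in WT MEST and 0.14 to 0.29 in WT sham mice on the log2 scale, without overlap of the WT sham mice. For the PRPF genes it was -0.064 to 0.12 in KO MEST, -0.18 to 0.067 in KO sham, -0.22 to -0.034 in WT MEST and 0.11 to 0.17 in WT sham mice. The Sm core, whose genes ran in both directions, gave overlapping ranges, -0.084 to 0.11 in KO MEST, -0.11 to 0.19 in KO sham, -0.12 to 0.027 in WT MEST and -0.060 to 0.14 in WT sham mice. KO sham replicate 3 was the highest of its group in 5 of the 6 classes, SF3 being the exception. The U2AF genes were lowest in WT MEST mice, at -0.16 to -0.10, where KO MEST mice had 0.014 to 0.15, KO sham mice -0.13 to 0.15 and WT sham mice 0.0027 to 0.096. The SF3 genes had -0.037 to 0.12 in KO MEST, -0.11 to 0.014 in KO sham, -0.091 to 0.0036 in WT MEST and 0.018 to 0.085 in WT sham mice. The U1 and U2 genes had -0.072 to 0.17 in KO MEST, -0.072 to 0.13 in KO sham, -0.082 to 0.018 in WT MEST and -0.15 to 0.094 in WT sham mice.

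**Figure D4:**
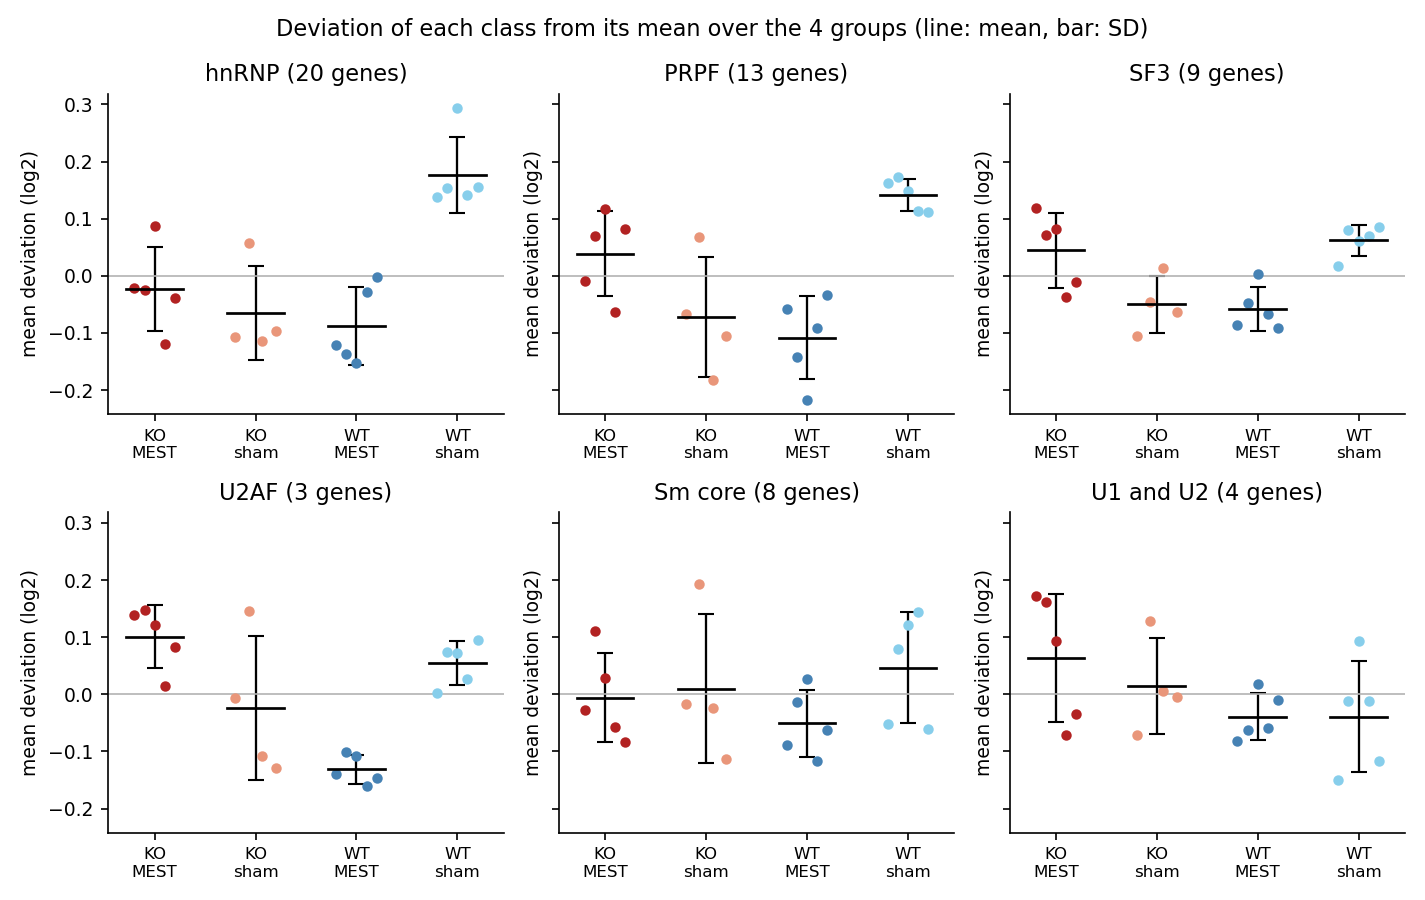
Mean deviation of each class (y axis, log2 scale, 0 being the mean of the 4 group means) in each mouse (points) of the KO MEST, KO sham, WT MEST and WT sham groups, with the mean (line) and SD (bar). WT sham mice stand above the other groups for the 20 hnRNP genes (0.14 to 0.29), and the 4 groups overlap for the 8 Sm core and 4 U1 and U2 genes.

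Set against each other over all 4 groups, the 12 Snrp genes and the 20 hnRNP genes parted mainly in the comparisons with WT sham mice. The median log2 fold change was -0.045 for the Snrp and -0.24 for the hnRNP genes in KO over WT sham mice, and -0.081 and -0.28 in WT MEST over WT sham mice, where the medians of all genes tested were -0.016 and -0.0036. In the same comparisons the medians were -0.23 and -0.30 for the PRPF genes and -0.11 and -0.19 for the SF3 genes. The Snrp set holds Sm core genes that ran in opposite directions. In KO over WT MEST mice the medians were 0.011 for the Snrp and 0.073 for the hnRNP genes, and in KO MEST over KO sham mice -0.037 and 0.070. For the difference of the seizure effects they were 0.045 and 0.30. Of the Snrp genes 3 were called positive and 4 negative (25% and 33.3%), against 12 and 1 of the hnRNP genes (60% and 5%). Over all genes tested the shares were 9.65% and 8.95%. These medians are descriptions and no test was made of the gap between the sets. The genes of the sets differ in size, with a median coding length of 355.5 bases for the Sm core, 720 bases for the U1 and U2 genes and 1303.5 bases for the hnRNPs. Over 57 members the rank correlation of coding length with the log2 fold change was -0.23 in KO over WT sham and -0.22 in WT MEST over WT sham mice, and over all genes that with exonic length was -0.20 and -0.085, a description over genes that are not independent and share these libraries. With the length trend removed, 18 members were lower and 4 higher in KO against WT sham mice, beside 1065 and 1324 of 15579 genes. In WT MEST against WT sham mice 29 were lower and 7 higher, beside 1884 and 2009 of 15481 genes.

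Other genes of the pathway were counted beside the shares over all genes tested. Of 28 genes of other U snRNP proteins, 4 were higher and 4 lower in KO sham than in WT sham mice (14.3% each, beside 8.18% and 7.18%), 5 higher and 11 lower in WT MEST than in WT sham mice (17.9% and 39.3%, beside 12.3% each), and 1 higher and none lower in KO MEST than in WT MEST mice (3.57%, beside 5.65% higher). Snrnp70, encoding the U1-70K protein that stands beside the products of Snrpa and Snrpc in the U1 particle, averaged 151 ± 16.5 CPM in KO sham (SD, n = 4) and 155 ± 24.2 CPM in WT MEST, against 236 ± 25.7 CPM in WT sham mice (SD, n = 5 each). Its log2 fold change was -0.65 (SE 0.09, adjusted p = 0.000205) in KO over WT sham and -0.61 (SE 0.10, adjusted p = 0.000392) in WT MEST over WT sham mice. Snrnp40, encoding a protein of the U5 particle, ran the other way, with 0.32 (SE 0.08, adjusted p = 0.0104) and 0.35 (SE 0.07, adjusted p = 0.000918) in the same comparisons. Sart1, encoding a protein that joins the tri-snRNP, was higher in KO MEST than in WT MEST mice by 0.36 (SE 0.06, adjusted p = 0.00223).

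Of 16 genes that build the snRNPs, 1 was higher in KO sham than in WT sham mice (6.25%, beside 8.18%), 2 were higher and 1 lower in WT MEST than in WT sham mice (12.5% and 6.25%, beside 12.3% each), shares near or below those of all genes. In KO MEST against WT MEST mice 3 were higher (18.8%, beside 5.65%). Gemin7, a subunit of the SMN complex that holds Sm proteins, was higher by 0.54 (SE 0.08, adjusted p = 0.00048) in KO over WT sham and 0.53 (SE 0.08, adjusted p = 7.6e-05) in WT MEST over WT sham mice. Smn1, encoding the central protein of that complex, was higher in KO MEST than in WT MEST mice by 0.26 (SE 0.07, adjusted p = 0.0384).

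Of 39 genes of spliceosome activation and catalysis, 14 were lower and 3 higher in KO sham than in WT sham mice (35.9% and 7.69%, beside 7.18% and 8.18%). In WT MEST against WT sham mice 22 were lower and 3 higher (56.4% and 7.69%, beside 12.3% each), and in KO MEST against WT MEST mice 10 were higher and none lower (25.6%, beside 5.65%). Puf60, which acts with U2AF at the 3′ splice site, was higher by 0.27 (SE 0.06, adjusted p = 0.00813) in KO over WT sham and 0.24 (SE 0.05, adjusted p = 0.00153) in WT MEST over WT sham mice. Of 37 other RNA-binding proteins that meet the precursor, 12 were lower and 2 higher in KO sham than in WT sham mice (32.4% and 5.41%, beside 7.18% and 8.18%), 15 lower and 3 higher in WT MEST than in WT sham mice (40.5% and 8.11%, beside 12.3% each), and 4 higher and 2 lower in KO MEST than in WT MEST mice (10.8% and 5.41%, beside 5.65% and 4.27%). Luc7l3, a relative of a yeast U1 protein, was among those lower in sham mice, with 130.0 ± 19.7 CPM in KO sham (SD, n = 4) and 238 ± 16.8 CPM in WT sham mice (SD, n = 5) and a log2 fold change of -0.88 (SE 0.09, adjusted p = 1.72e-05). Its seizure effect differed between genotypes by 1.22 (SE 0.17, adjusted p = 8.42e-05). In KO MEST against KO sham mice no gene of the 4 lists passed under limma. At an unadjusted p under 0.05 there were 21 of their 120 genes, beside 2870 of all 16147 genes tested, which is a like share.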

How the data were processed

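RNA of 19 mice, 1 library each, was sequenced from a stranded poly(A) library. Per the labels and the study's methods, the authors used bcl2fastq, Trimmomatic 0.39, SortMeRNA, HISAT2 2.2.1 on mm10, featureCounts (Subread 2.0.3) and DESeq2 1.36.0; strand and multimapping settings are not given in the sources used here. The deposited signal is the read count per gene divided by 1 size factor per library, set separately in a WT and a KO table. The authors' columns of base means, fold changes and p-values were not used. All values came back as whole reads (100%, tolerance 0.01 of a read). Of 24421 symbols per table, 27 turned into dates (up to 0.384% of reads) were left out.

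Libraries were rescaled to CPM by their own totals with TMM factors over all 19 libraries. The filter asked for 0.2 CPM or more in a number of libraries equal to the smaller group. Genes that passed were tested with limma 3.58.1 (trend, robust) in R 4.3.3 on log2(CPM + 0.1), a scale that understates changes of low genes, with p-values adjusted by Benjamini-Hochberg over all genes tested. The difference of the seizure effects came from 1 model of the 4 groups. Class deviations and medians had no test. Alternatives were other scalings, pseudocounts of 0.5 and 1, other filters, edgeR 4.0.16 (quasi-likelihood) and DESeq2 1.42.0 on the recovered reads, removal of the trend on exonic length, a replicate block and leaving out each library. In KO MEST against KO sham mice limma called 146 genes higher and 79 lower, and edgeR 142 and 77. Scripts were tested on simulated data.

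Values in every library are given for the 12 Snrp genes and for up to 5 called members per direction and comparison, taken by smallest p at a mean of at least 2 CPM. From the other lists up to 3 genes per direction could be named. Of 1 member, counted in the totals, and 1 listed gene the values are not reported here. The members and lists were chosen with earlier results of these data known. Exonic overlap, windows of 100 bases shared between genes and coding lengths came from GENCODE vM21 (95.7% of symbols matched), and promoters from RefSeq, for 48 of the 57 members.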

Additional observations from a re-analysis of the deposited data

Results flagged for a closer look

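Of 96 groups of 4 or 5 mice examined for the genes with values in every library, 4 held a mouse that stood far from the rest, and chance gives about 1 in 20. They were KO sham replicate 3 for Hnrnpa2b1 (465 CPM), KO sham replicate 4 for Snrpc (17 CPM), WT sham replicate 1 for Snrpf (6.17 CPM) and KO MEST replicate 5 for Snrpg (8.86 CPM).

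The seizure effect differed between genotypes by limma's interaction test (adjusted p under 0.05, KO minus WT, on the log2 scale) for 17 genes with values in every library. The difference was positive for Hnrnpa1 (1.34), Snrpd3 (1.15), Hnrnph3 (0.99), Prpf38b (0.98), Snrpd1 (0.85), Hnrnpa2b1 (0.81), Prpf3 (0.72), Hnrnpdl (0.58), Prpf4b (0.51), Hnrnpul1 (0.5), Snrpc (0.46) and Sf3b2 (0.39). It was negative for Snrpg (-1.06), Snrpe (-0.66), Hnrnpa0 (-0.63), Snrpd2 (-0.57) and Snrpa1 (-0.34). All these differences contain the WT sham libraries, so they are not independent of the comparisons with WT sham mice.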

How the results depend on the processing

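In KO MEST against KO sham mice, where no member passed, 1 was higher with a filter at 1 CPM (Hnrnpul1), 1 with the length trend removed, 3 in a fit of all 19 libraries and 5 with DESeq2. In the fit of all libraries and with DESeq2, 1 member was lower (Hnrnpa3). Over all genes DESeq2 called 547 higher and 368 lower there, against 146 and 79 with limma. Leaving out each library gave 0 to 4 members higher. DESeq2 called 5 members higher, not 3, in KO against WT sham mice, and 1609 of all 16182 genes, against 1323 with limma. Leaving out each library gave 2 to 4 members higher and 16 to 25 lower there, 12 to 21 higher and 2 to 4 lower in KO against WT MEST mice, 4 to 7 higher and 25 to 28 lower in WT MEST against WT sham mice, and 23 to 31 positive and 4 to 7 negative for the difference of the seizure effects. The gap between the Snrp and hnRNP medians kept its sign in every alternative run.

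The correlation of deviations between mice of the same replicate number was -0.063 to 0.28, so the numbers were not taken as pairs. With a replicate block 2 members were higher in KO MEST than in KO sham mice, and 3 with the block and the length trend removed, and the block changed 11 of 120 calls of named genes. Of 2904 alternatives for those 120 results 66 lost the call, 57 gained it and none reversed the direction of a called value. Differences smaller than the spread between 4 or 5 mice could not be seen.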
